A study of Mus musculus with 24 samples.

Results

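Lymphocyte lineage transcription factors are DNA-binding proteins that set which kind of lymphocyte a precursor becomes and hold it in that state. The rule named 10 of them (Eomes, Tbx21, Runx3, Tcf7, Lef1, Ikzf1, Ikzf3, Zbtb16, Ets1 and Gfi1), and 9 had a row among the 547 genes of the value table. Zbtb16 was not analysed here. The rule used names only and no measured value, but the names were chosen with earlier results of these data known. The table came from the nCounter mouse immunology panel, in which colour-coded probe pairs are hybridized to total RNA and counted one molecule at a time, without amplification.

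RNA was taken from 24 C57BL/6 mice in week 7 of life, from the terminal ileum, which is the last stretch of small intestine. Control mice (4 males and 3 females) drank plain water. PAT1 mice (4 males and 3 females) were exposed as nursing pups to 1 course of tylosin, a macrolide antibiotic given to the dam, where PAT stands for pulsed antibiotic treatment. PAT3 mice (4 males and 6 females) had the same nursing course and then further courses after weaning, 3 in all. The study's own account divides the mice differently between PAT1 and PAT3 than the labels do. The labels were followed, and which division is right could not be settled here. The study asked whether a single early course alters the host as repeated courses do. Litters were assigned whole to a group and pups were then housed by sex and group, so litter, cage and treatment cannot be told apart, and all tests treat each mouse as independent. The extracts came from whole tissue, in which fewer cells of a type and less RNA per cell cannot be told apart.

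Values were log2 normalized counts, and differences between groups are given in log2 units, on which −1 is a level 50% lower. Control samples held 445534 to 750256 counts, PAT1 samples 171671 to 782392 and PAT3 samples 265500 to 668511, and 3 samples (PAT1 replicates 1 and 3, PAT3 replicate 7) held fewer than 300000. The median level over all genes of a sample was lower by 0.14 in PAT1 and by 0.19 in PAT3 than in Control. PAT1 replicate 7 stood apart: its mean log2 value over 10 B cell genes was 8.37, against at most 7.20 in the other PAT1 mice. It held the highest value of all 24 mice for Tcf7, Lef1, Ikzf1, Ikzf3 and Ets1, so results for these factors are also given without it.

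The factors fall into families that share a DNA-binding domain. Tbx21 (T-bet) and Eomes are T-box proteins that direct type 1 helper, cytotoxic T and natural killer cell programmes. Runx3 is a Runt-domain protein that maintains the CD8 lineage by silencing Cd4, and is needed by resident cytotoxic cells of epithelia. Ikzf1 (Ikaros) and Ikzf3 (Aiolos) are zinc finger proteins of one family, the first acting across lymphoid development and the second prominent in B cells and also present in T and innate lymphoid cells. Tcf7 (TCF-1) and Lef1 are HMG-box partners of the Wnt pathway, marking naive and memory T cells. Ets1 is a broadly used lymphocyte activator, and Gfi1 a zinc finger repressor of lymphoid and myeloid development.

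Promoters are shown for Runx3 and Tbx21, the factors that passed the test against Control in both antibiotic groups. Each is 300 bases from RefSeq on build GRCm38.p6, with 250 bases before the annotated start and 50 after it, written 5′ to 3′ on the strand of the gene. RefSeq promoters matched 7 of the 9 factors. Capitals mark matches to the Runx core TGTGGT, read on either strand. The first Runx3 sequence is the upstream start at chr4:135120395-135120694 and the second the downstream start at chr4:135152295-135152594, both on the plus strand, and that of Tbx21 is chr11:97115282-97115581 on the minus strand.
Runx3, upstream start: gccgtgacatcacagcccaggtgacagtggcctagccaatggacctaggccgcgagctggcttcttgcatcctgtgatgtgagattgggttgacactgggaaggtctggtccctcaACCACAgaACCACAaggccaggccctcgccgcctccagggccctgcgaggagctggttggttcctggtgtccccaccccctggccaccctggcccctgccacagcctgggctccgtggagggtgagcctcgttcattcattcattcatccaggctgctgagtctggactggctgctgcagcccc
Runx3, downstream start: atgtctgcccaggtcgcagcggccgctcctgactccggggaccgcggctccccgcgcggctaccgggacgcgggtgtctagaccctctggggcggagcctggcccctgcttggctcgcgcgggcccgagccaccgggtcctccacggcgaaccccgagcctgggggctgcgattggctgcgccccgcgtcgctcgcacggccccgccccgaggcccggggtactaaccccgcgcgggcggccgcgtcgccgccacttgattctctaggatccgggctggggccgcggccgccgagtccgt
Tbx21: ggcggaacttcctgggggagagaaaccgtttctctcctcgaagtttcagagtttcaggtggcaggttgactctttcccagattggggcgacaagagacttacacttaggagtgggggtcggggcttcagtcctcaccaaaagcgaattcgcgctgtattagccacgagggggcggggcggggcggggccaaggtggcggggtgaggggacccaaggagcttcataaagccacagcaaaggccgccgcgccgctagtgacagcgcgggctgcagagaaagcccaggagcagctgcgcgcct

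Both Runx core matches of the upstream Runx3 promoter were on the opposite strand, as ACCACA, beginning at bases 117 and 125 of the 300. The downstream Runx3 promoter and the Tbx21 promoter held none. The T-box core TCACACC and the Tcf and Lef core CTTTGA, also searched on both strands, were in none of the 3 sequences. Of 32851 mouse promoters of this length, 16.8% held the Runx core, 3.98% the T-box core and 16.0% the Tcf and Lef core. A match is a description of the letters and not a site of binding.

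Antibiotic exposure was accompanied by lower Tbx21 and Runx3 in both groups and by lower Ikzf3 after 3 courses. In PAT1, 2 of the 9 factors passed the test (limma, adjusted p under 0.05), both lower, against 18.5% of all 547 genes in either direction and 11.2% lower. In PAT3, 3 of 9 passed, all lower, against 31.8% in either direction and 17.9% lower. The median difference over the 9 factors was 0.03 in PAT1 and −0.36 in PAT3, beside 0.01 and 0.03 over all genes. Both comparisons use the same Control mice and are not independent. No factor was higher in any comparison by limma, limma-voom on the recovered counts or the methods' test (analysis of variance with Tukey's test). Nor did any reach a p under 0.05 upwards before adjustment over genes, though Tukey's p is already adjusted over the comparisons.

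**Figure D1:**
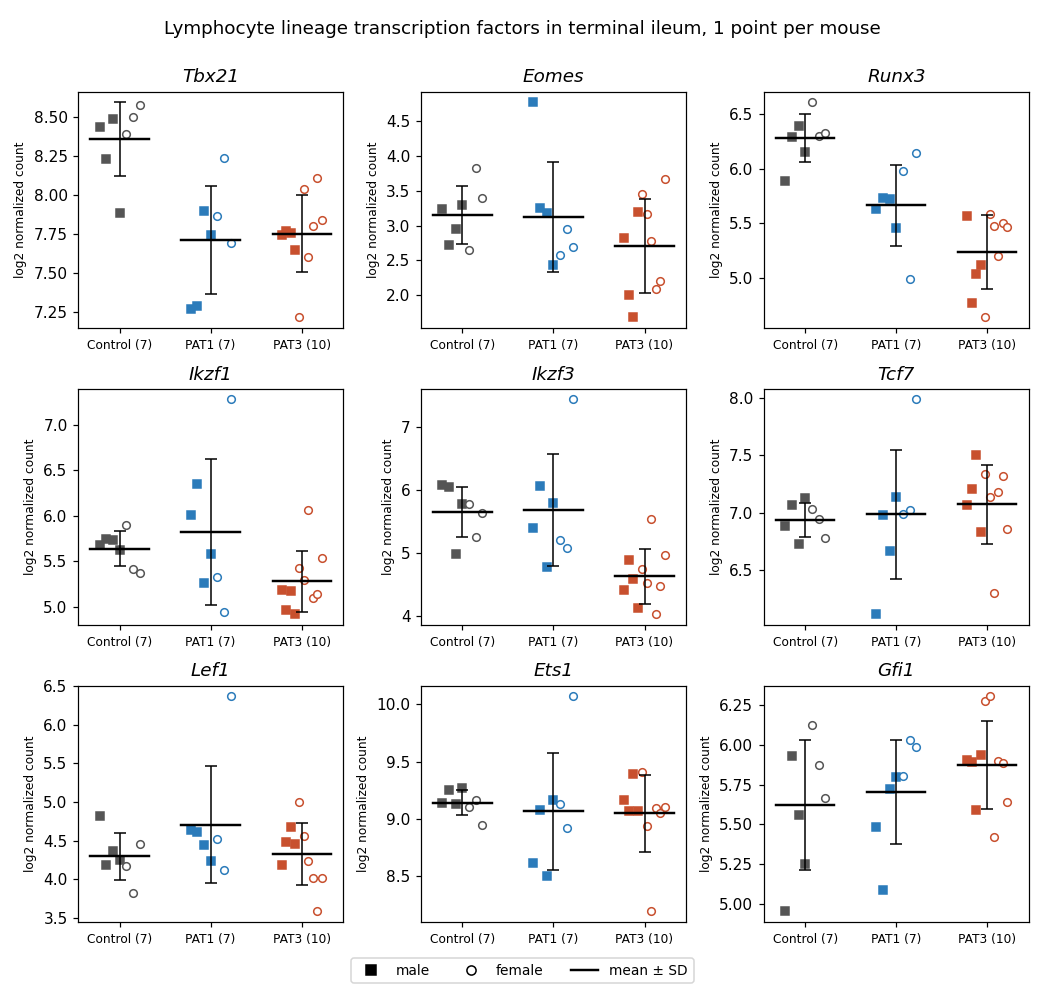
Log2 normalized count of the 9 factors (vertical axes, each with its own range) in every mouse, by group with the number of mice in brackets. Filled squares are males and open circles females, and bars give the mean ± SD. Every PAT3 value of Runx3 lies below every Control value, and PAT1 replicate 7 is the top point for Ikzf1, Ikzf3, Tcf7, Lef1 and Ets1.

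Runx3 was the one factor whose PAT3 and Control mice did not overlap. In Control mice it ran from 5.89 through a median of 6.30 to 6.61, in PAT1 from 4.99 through 5.72 to 6.14, and in PAT3 from 4.64 through 5.33 to 5.59. All 10 PAT3 mice lay below the lowest Control mouse, which held for 7.31% of all genes, and 5 of 7 PAT1 mice did. Mean levels were 6.28 ± 0.22 in Control mice (SD, n = 7), 5.66 ± 0.37 in PAT1 mice (SD, n = 7) and 5.24 ± 0.34 in PAT3 mice (SD, n = 10). The PAT1 difference was −0.62 (SE 0.18, limma adjusted p = 0.0136), a level 34.8% lower, with all 7 mice under the Control mean. The PAT3 difference was −1.04 (SE 0.16, limma adjusted p = 2.2e-05), a level 51.5% lower. Between the antibiotic groups Runx3 differed by −0.43 (95% confidence interval −0.76 to −0.09), which did not pass the test (limma adjusted p = 0.0958). Without PAT1 replicate 6 that difference was −0.54 and passed (limma adjusted p = 0.0256).

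Tbx21 was lower after 1 course and after 3. Its values ran from 7.88 through a median of 8.43 to 8.58 in Control, from 7.26 through 7.74 to 8.23 in PAT1 and from 7.21 through 7.76 to 8.11 in PAT3. The highest PAT1 and PAT3 mice overlapped the lowest Control mouse, and 5 of 7 PAT1 and 8 of 10 PAT3 mice lay below it. No factor had every PAT1 value below every Control value, as 3.84% of all genes did. The difference was −0.65 in PAT1 (SE 0.16, limma adjusted p = 0.0042) and −0.60 in PAT3 (SE 0.14, limma adjusted p = 0.0023), so that levels were 36.1% and 34.2% lower, and every antibiotic mouse lay under the Control mean. PAT3 and PAT1 differed by 0.04, with a 95% confidence interval of −0.26 to 0.34. Re-centring each sample on its median over all genes took the Tbx21 difference to −0.50 in PAT1 and −0.41 in PAT3 and that of Runx3 in PAT1 to −0.47, and these calls were lost (limma adjusted p = 0.0659, 0.0611 and 0.0659), while Runx3 in PAT3 kept its call at −0.85.

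Within groups Tbx21 followed the enterocyte list, 6 genes of absorptive epithelium, with r = 0.80 over the 24 mice after group means were subtracted. Mean levels of that list were 13.26 ± 0.47 in Control mice (SD, n = 7), 13.36 ± 0.52 in PAT1 mice (SD, n = 7) and 13.37 ± 0.53 in PAT3 mice (SD, n = 10). Its summed counts ran from 72114 to 130300.0 in Control, from 38948 to 100608 in PAT1 and from 45789 to 98599 in PAT3, 2 of its genes were higher and 2 lower in each antibiotic group, and none was at 0. With the list as a covariate, a setting added after its levels were seen, the PAT3 difference of Tbx21 was −0.65 and still passed (limma adjusted p = 7.5e-06). Among genes outside the factors, Irf1 (r = 0.87), which encodes an interferon response factor, and Zbtb7b (r = 0.84), which encodes the CD4 lineage factor ThPOK, were most alike to Tbx21. Those most alike to Runx3 were Cd160 (r = 0.62), a receptor of intraepithelial and natural killer lymphocytes, and Cd8a (r = 0.57), the CD8 alpha chain. These correlations describe mice that share the normalization of one table.

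Eomes was near the lower end of what the assay could count, with a median of 9 counts in Control and 7 in each antibiotic group, so that counting error alone came to 33.3% and 37.8%. Its log2 values ran from 2.65 to 3.83 in Control, from 2.43 to 4.77 in PAT1 and from 1.68 to 3.67 in PAT3, and the groups overlapped. The differences from Control were −0.03 in PAT1 (95% confidence interval −0.71 to 0.64) and −0.45 in PAT3 (−1.07 to 0.18), and neither passed (limma adjusted p = 0.981 and 0.268). The ratio of Eomes to Tbx21 within a mouse differed from Control by 0.61 in PAT1 and 0.16 in PAT3, which did not pass an exact two-sided permutation test (adjusted p = 0.359 and 0.638 over 9 ratio tests). The value of 4.77 was from PAT1 replicate 1, the shallowest sample, without which the PAT1 difference of Eomes was −0.31. Within groups Eomes was lower where the total count of the sample was higher (r = −0.66 on the log2 scale, rank correlation −0.61). With the size factor as a covariate its differences from Control were −0.39 in PAT1 and −0.52 in PAT3, and neither passed (limma adjusted p = 0.342 and 0.101).

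The lists of other genes put these factors in context, and they were described by counts only. Over all genes, 11.2% were lower in PAT1 and 17.9% in PAT3. Of 12 genes that T-box factors and Runx3 are known to act on, 7 fell in PAT1 and 9 in PAT3, with median differences of −0.62 and −1.14. Ifng, Cxcr3 and Fasl passed in neither group, with differences of −0.15, 0.05 and −0.10 in PAT1 and −0.55, −0.44 and −0.31 in PAT3. Ifng held a median of 8 counts. Prf1 and Il12rb2 did not pass in PAT1. The granzyme genes Gzma and Gzmb fell in both groups, with differences of −1.52 and −1.62 in PAT1 and −2.52 and −2.33 in PAT3, as did the chemokine gene Ccl5 (−1.32 and −1.97). Of 12 T cell genes, 3 fell in PAT1 and 9 in PAT3, with medians of −0.44 and −0.97, and Cd8a, which is on both lists, fell in each (−0.94 and −1.84). The natural killer and cytotoxic list, which shares Gzma, Gzmb, Prf1, Klrd1 and Fasl with the first list, had 3 and 5 of 11 genes lower. Of 12 myeloid genes, 2 were lower in PAT1 and 3 in PAT3. Runx3 and Tbx21 were lower in the same groups as many lymphocyte transcripts. Within groups the correlation with the T cell list was r = 0.50 for Runx3 and −0.21 for Tbx21. With the B cell list it was r = 0.18 and −0.36. The part of cell number in the differences of Runx3 and Tbx21 was not tested.

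**Figure D2:**
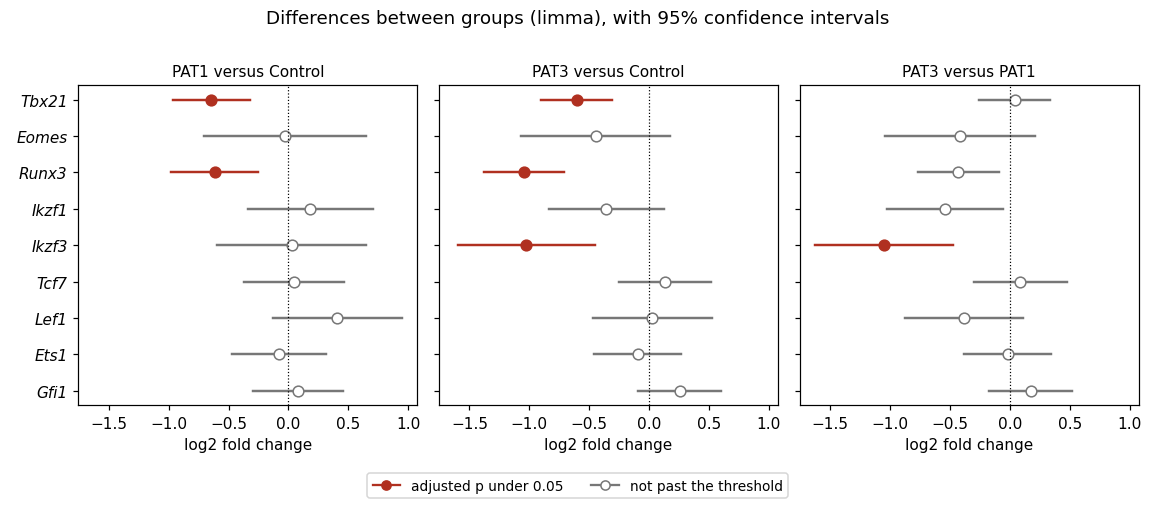
Difference between groups of each factor in log2 units (horizontal axis), with 95% confidence intervals from limma, for the 3 comparisons. Red filled points passed the test (adjusted p under 0.05). Tbx21 and Runx3 passed in PAT1 against Control, Runx3, Tbx21 and Ikzf3 in PAT3 against Control, and Ikzf3 in PAT3 against PAT1.

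In the Ikaros family, Ikzf3 was lower after 3 courses, whereas the difference of Ikzf1 did not pass the test. Ikzf3 values ran from 4.99 through a median of 5.78 to 6.07 in Control, from 4.77 through 5.40 to 7.44 in PAT1 and from 4.02 through 4.55 to 5.53 in PAT3. In PAT3, 9 of 10 mice lay below the lowest Control mouse, and the tenth, replicate 7, lay within the Control range. The PAT3 difference from Control was −1.02 (SE 0.28, limma adjusted p = 0.0062), a level 50.8% lower. In PAT1 the difference was 0.03 (95% confidence interval −0.59 to 0.65), and −0.27 without replicate 7, neither of which passed (limma adjusted p = 0.982 and 0.495).

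Ikzf3 was also the factor that passed between PAT3 and PAT1 (difference −1.05, SE 0.28, limma adjusted p = 0.0401), 1 of 9 against 4.20% of all genes in either direction and 2.74% lower. All 10 PAT3 mice lay below the PAT1 mean. This call, which also depends on the labels of PAT1 and PAT3 mice, was close to the threshold and was lost without any 1 of PAT1 replicates 1, 2, 4 and 7 or PAT3 replicates 1, 2, 3, 4, 5, 6, 8 and 9, with differences between −1.20 and −0.76 over all single omissions. It was −0.76 without PAT1 replicate 7 (limma adjusted p = 0.0542). With the methods' test the adjusted p was 0.156 and with the size factor as a covariate 0.0665. With the B cell list as a covariate it came to −0.34 (limma adjusted p = 0.529). With the methods' test, with either covariate and without PAT1 replicate 7, 0 genes of the whole table passed between PAT3 and PAT1.

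Ikzf1 ran from 5.37 through a median of 5.68 to 5.90 in Control, from 4.94 through 5.57 to 7.28 in PAT1 and from 4.91 through 5.18 to 6.06 in PAT3. In PAT3, 9 of 10 mice were under the Control mean and 7 under the lowest Control mouse, yet the difference of −0.36 (SE 0.23, limma adjusted p = 0.249) did not pass. In PAT1 the difference from Control was 0.18, and −0.06 without replicate 7 (limma adjusted p = 0.672 and 0.879). Between PAT3 and PAT1 it was −0.54 (95% confidence interval −1.02 to −0.06, limma adjusted p = 0.127), −0.30 without PAT1 replicate 7 and 0.03 with the B cell list as a covariate, none of which passed. Without PAT1 replicate 6 it was −0.69 and passed (limma adjusted p = 0.0417).

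The ratio of Ikzf1 to Ikzf3 within a mouse does not depend on how the sample was scaled. It was −0.01 ± 0.40 in Control mice (SD, n = 7), 0.14 ± 0.33 in PAT1 mice (SD, n = 7) and 0.65 ± 0.26 in PAT3 mice (SD, n = 10), in log2 units. PAT3 exceeded Control by 0.67 (exact two-sided permutation test, p = 0.0015, adjusted p = 0.0134 over 9 tests), with all 10 mice above the Control mean, and exceeded PAT1 by 0.51 (exact p = 0.0031, adjusted p = 0.0141), with 9 of 10 above. Ranges overlapped, since Control replicate 3 had 0.74. Without PAT1 replicate 7 the PAT1 comparison still passed (adjusted p = 0.0326). PAT1 and Control differed by 0.16 (adjusted p = 0.557).

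Levels of both genes moved with the B cell and T cell genes of the same mouse. Within groups the correlation with the B cell list over 24 mice was r = 0.81 for Ikzf1 and 0.83 for Ikzf3, and 0.70 and 0.73 without PAT1 replicate 7. With the T cell list it was r = 0.82 for Ikzf1 and 0.68 for Ikzf3, and 0.79 and 0.59 without that mouse. Summed over the B cell list, normalized counts ran from 569 to 1300.2 in Control, from 549 to 5601 in PAT1 and from 528 to 914 in PAT3, and no gene of it was at 0. The B cell list mean was 5.11 ± 0.64 in Control mice (SD, n = 7), 5.91 ± 1.57 in PAT1 mice (SD, n = 7) and 4.55 ± 0.43 in PAT3 mice (SD, n = 10). Of its 10 genes, 1 was higher in PAT1 and 1, the receptor component Cd79b, lower in PAT3, with medians of 0.74 and −0.50. Over all genes, 18.5% passed in either direction in PAT1 and 31.8% in PAT3. With the B cell list as a covariate Ikzf3 in PAT3 against Control was −0.73 and still passed (limma adjusted p = 0.0026). The genes most alike to both were led by Map4k1, a kinase of lymphocyte receptor signalling (r = 0.90 with Ikzf1 and 0.91 with Ikzf3), followed by the lymphotoxin gene Ltb (0.88) for Ikzf1 and the B cell receptor regulator Cd22 (0.89) for Ikzf3. Without PAT1 replicate 7 these correlations were 0.82, 0.84, 0.79 and 0.80.

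**Figure D3:**
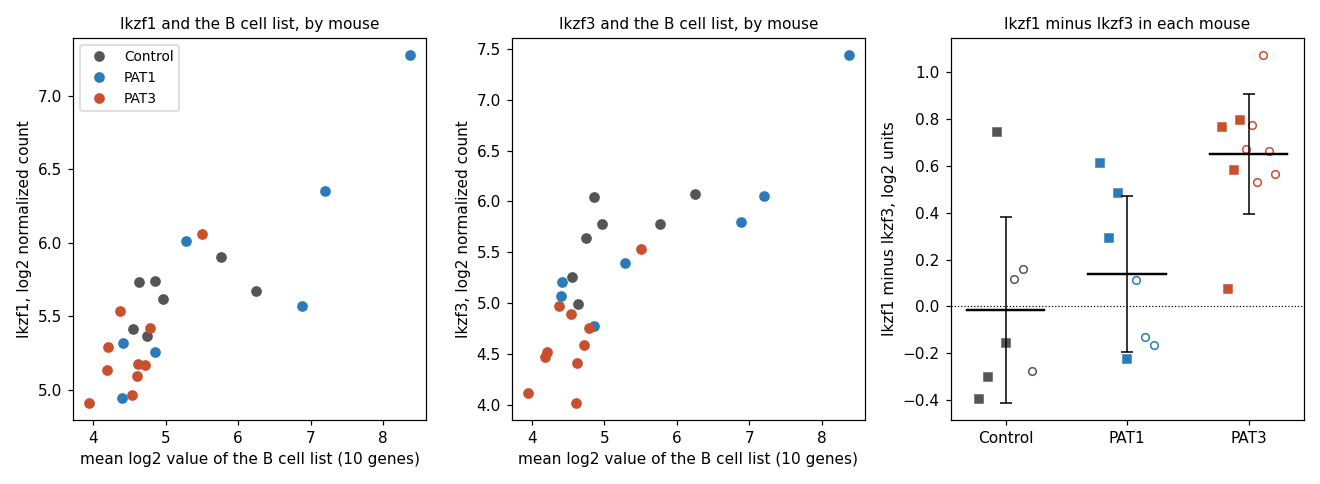
Left and centre, log2 normalized counts of Ikzf1 and Ikzf3 (vertical axes) against the mean log2 value of 10 B cell genes (horizontal axes), 1 point per mouse, coloured by group. Right, Ikzf1 minus Ikzf3 in each mouse in log2 units, with squares for males, circles for females and bars for the mean ± SD. PAT1 replicate 7 is the point at the upper right of the first 2 panels, and all PAT3 mice lie above 0 in the third.

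Tcf7 and Lef1, the factors of naive and memory T cells, did not pass any comparison. Tcf7 ran from 6.73 through a median of 6.95 to 7.13 in Control, from 6.12 through 6.99 to 7.99 in PAT1 and from 6.30 through 7.16 to 7.51 in PAT3, so that both antibiotic groups spread beyond Control on either side. The differences from Control were 0.05 in PAT1 (95% confidence interval −0.37 to 0.46) and 0.13 in PAT3 (−0.25 to 0.52), with limma adjusted p = 0.923 and 0.591. Without PAT1 replicate 7 the PAT1 value was −0.12. Within groups Tcf7 followed the total count of the sample (r = 0.80 on the log2 scale, 0.77 without PAT1 replicate 7, rank correlation 0.54). The lowest mice for Tcf7, PAT1 replicate 1 and PAT3 replicate 7, were also the shallowest of their groups. With the size factor as a covariate the PAT1 difference of Tcf7 was 0.35 (limma adjusted p = 0.0544), and without the 3 samples under 300000 counts it was 0.28 (limma adjusted p = 0.210). The PAT3 values were then 0.20 and 0.22, and neither passed.

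Lef1 ran from 3.83 through 4.25 to 4.82 in Control, from 4.11 through 4.52 to 6.36 in PAT1 and from 3.59 through 4.35 to 4.99 in PAT3. It differed from Control by 0.41 in PAT1 (95% confidence interval −0.13 to 0.95) and by 0.03 in PAT3 (−0.47 to 0.52), with limma adjusted p = 0.323 and 0.938. The PAT1 difference was 0.13 without replicate 7. The ratio of Tcf7 to Lef1 within a mouse did not pass in any comparison (differences −0.36, 0.11 and 0.47, exact permutation adjusted p = 0.359, 0.638 and 0.244). The list of 7 naive and memory lymphocyte genes had 1 gene higher and 1 lower in PAT3, beside 31.8% of all genes in either direction. Il6ra, an interleukin-6 receptor chain, rose by 0.64 (limma adjusted p = 0.0051), and the costimulatory receptor Cd27 fell by 0.80 (limma adjusted p = 0.0077). Genes most alike to Tcf7 were Clu and Vcam1 (r = 0.84 each, 0.76 and 0.75 without PAT1 replicate 7), both expressed by stromal cells of lymphoid follicles. For Lef1 they were the pan-leukocyte antigen Ptprc and the cytokine gene Il16 (r = 0.72 each), with 0.38 and 0.40 without PAT1 replicate 7.

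Ets1 had the narrowest spread in Control, from 8.94 through a median of 9.14 to 9.27. It ran from 8.50 through 9.08 to 10.07 in PAT1 and from 8.20 through 9.08 to 9.41 in PAT3. The differences of −0.08 in PAT1 (95% confidence interval −0.47 to 0.32) and −0.09 in PAT3 (−0.46 to 0.27) did not pass (limma adjusted p = 0.839 and 0.696). The PAT1 value was −0.24 without replicate 7 (limma adjusted p = 0.341) and 0.18 with the size factor as a covariate. Without the 3 samples under 300000 counts the values were 0.13 in PAT1 and 0.00 in PAT3. Ets1 followed the total count of the sample within groups (r = 0.69, and 0.64 without PAT1 replicate 7), though the rank correlation was 0.36. It was the factor closest to Tcf7 (r = 0.89, and 0.83 without PAT1 replicate 7). Vcam1 (r = 0.87) and the kinase gene Map4k2 (r = 0.83) were most alike to Ets1, with 0.78 and 0.73 without that mouse.

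Gfi1 ran from 4.95 through a median of 5.67 to 6.13 in Control, from 5.09 through 5.80 to 6.03 in PAT1 and from 5.42 through 5.90 to 6.31 in PAT3. Its differences from Control, 0.08 in PAT1 (95% confidence interval −0.30 to 0.46) and 0.25 in PAT3 (−0.09 to 0.60), did not pass (limma adjusted p = 0.816 and 0.259), although 8 of 10 PAT3 mice lay above the Control mean. After re-centring each sample on its median the PAT3 difference was 0.44 and passed (limma adjusted p = 0.0468). Irak1, a kinase of Toll-like receptor signalling, and Pdgfrb, a growth factor receptor of stromal cells (r = 0.70 each), were most alike to Gfi1.

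Each factor was then set against the T cell transcripts of the same tissue piece, as its log2 value minus the mean of the 12 T cell genes. That mean was 6.04 ± 0.11 in Control mice (SD, n = 7), 5.56 ± 0.39 in PAT1 mice (SD, n = 7) and 5.03 ± 0.31 in PAT3 mice (SD, n = 10), so that a factor whose level does not move rises on this scale. Summed normalized counts of the T cell genes ran from 971 to 1175 in Control, from 572 to 1220.2 in PAT1 and from 396 to 715 in PAT3. Within groups the correlation of the T cell mean with Ikzf1, Ikzf3, Runx3 and Lef1 was r = 0.82, 0.68, 0.50 and 0.38. For Eomes, Ets1, Tcf7, Tbx21 and Gfi1 it was r = 0.24, 0.10, −0.007, −0.21 and −0.39. A difference on this scale was therefore not read as a level per T cell. Relative to T cell genes, Runx3 differed from Control by −0.14 in PAT1 and −0.04 in PAT3, and Ikzf3 by 0.50 and −0.02, none of which passed (exact two-sided permutation test, adjusted p = 0.520, 0.852, 0.160 and 0.945 over 27 tests). The standard errors of the PAT3 values were 0.15 for Runx3 and 0.19 for Ikzf3. These values depended on the reference. Relative to Ptprc, a gene of all leukocytes, Runx3 differed from Control by −0.53 in PAT1 and −0.58 in PAT3, and Ikzf3 by 0.11 and −0.56 (exact permutation adjusted p = 0.0892, 0.055, 0.789 and 0.055). On that scale all 10 PAT3 mice lay below the Control mean for Runx3 and 9 of 10 for Ikzf3. Relative to the T cell genes, Tbx21 differed by −0.17 in PAT1 and 0.40 in PAT3 (adjusted p = 0.660 and 0.055), and the PAT3 value passed without any 1 of PAT3 replicates 5, 7 and 10 (lowest exact permutation adjusted p = 0.0158). Relative to Ptprc the Tbx21 differences were −0.56 and −0.14, and neither passed (exact permutation adjusted p = 0.236 and 0.661).

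Relative to T cell genes, 5 factors were higher in PAT3, where the T cell mean itself was lower (5.03 against 6.04 in Control). On this scale Gfi1 was higher by 1.26, Tcf7 by 1.14 and Lef1 by 1.03 (exact permutation adjusted p = 0.0059 for each). Ets1 was higher by 0.91 (exact permutation adjusted p = 0.0090) and Ikzf1 by 0.65 (exact permutation adjusted p = 0.0028). All 10 PAT3 mice lay above the Control mean for Gfi1, Lef1 and Ikzf1, and 9 of 10 did for Tcf7 and Ets1. As normalized counts none of these 5 passed in PAT3 (Gfi1 0.25, Tcf7 0.13, Lef1 0.03, Ets1 −0.09 and Ikzf1 −0.36), while the T cell mean was lower. The share of all genes past the test on the T cell scale was not computed. Calls on this scale were therefore not read as results about the factors. In PAT1, Lef1 was higher on that scale by 0.88 (exact permutation adjusted p = 0.0063) and Ikzf1 by 0.66 (exact permutation adjusted p = 0.0090), each in all 7 mice. As normalized counts neither passed in PAT1 (0.41 and 0.18). None of the 7 differences on the T cell scale passed when Ptprc took the place of the T cell genes. They were then between 0.10 and 0.71, with exact permutation adjusted p from 0.0504 to 0.727. With all mice included, no difference between PAT3 and PAT1 passed on the T cell scale (lowest exact permutation adjusted p = 0.055).

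**Figure D4:**
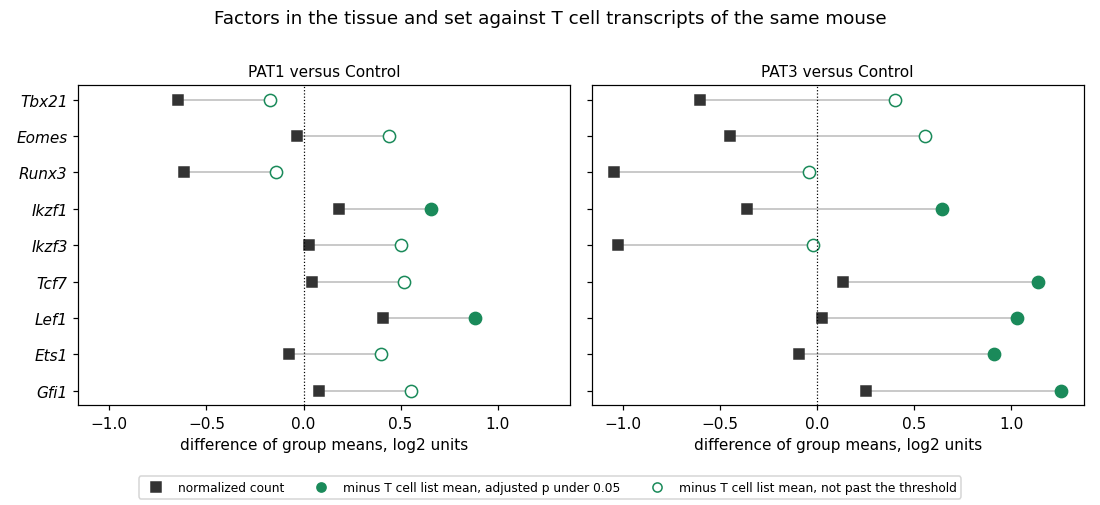
Difference from Control of each factor in log2 units (horizontal axis), as normalized count (dark squares) and after subtracting the mean of 12 T cell genes in the same mouse (green circles, filled where the exact permutation test passed after adjustment). In PAT3 the circles for Runx3 and Ikzf3 lie at −0.04 and −0.02 (−0.58 and −0.56 when Ptprc is the reference, not drawn), and those for Gfi1, Tcf7, Lef1, Ets1 and Ikzf1 are filled.

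Beyond the 9, other lineage transcription factors of the panel were counted in the same way. Of 23 in the table, 3 were lower in PAT1, beside 11.2% of all genes. In PAT3, 5 were lower and 1 higher, beside 17.9% of all genes lower and 31.8% in either direction. The medians of the 23 were −0.12 and −0.07. Those named by the rule of largest difference in PAT3 were Irf4, which activated lymphocytes and plasma cells need (fell by 0.93, limma adjusted p = 0.0028), Batf, its AP-1 partner (fell by 0.88, limma adjusted p = 0.0015), and Stat4, which transmits interleukin-12 signals upstream of Tbx21 (fell by 0.78, limma adjusted p = 0.0015). Batf was also lower in PAT1, by 0.65 (limma adjusted p = 0.0342). Relatives of Ikzf3 on the panel, chosen after their values were seen, were Ikzf2 (Helios), lower in PAT1 (difference −0.78, limma adjusted p = 0.0187), and Ikzf4 (Eos), the one higher in PAT3 (difference 0.60, limma adjusted p = 0.0119).

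No factor passed a test of sex. Female minus male differences in a fit with group and sex ran from −0.01 for Lef1 to 0.29 for Gfi1, with a lowest limma adjusted p = 0.390. Nor did a test of whether the effect of treatment differed by sex (lowest limma adjusted p = 0.366, for Ets1). Runx3 in males averaged 6.18 ± 0.22 (SD, n = 4) in Control and 5.12 ± 0.33 (SD, n = 4) in PAT3, and in females 6.41 ± 0.17 (SD, n = 3) and 5.31 ± 0.35 (SD, n = 6). Ikzf3 averaged 5.72 ± 0.51 (SD, n = 4) in Control and 4.50 ± 0.32 (SD, n = 4) in PAT3 males, and 5.56 ± 0.27 (SD, n = 3) and 4.71 ± 0.51 (SD, n = 6) in females.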

How the data were processed

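Expression was measured with the NanoString nCounter mouse immunology panel in 7 Control, 7 PAT1 and 10 PAT3 mice. Groups and sex follow the labels, and replicate numbers only name samples. The authors normalized the counts with DESeq2 and deposited log2 values for 547 genes. All values above 0 came out as whole counts within 0.01 (100%), 19 values are listed at 0, and in a chi-square test of counts over genes the closest of 276 pairs of samples reached 3.98 per degree of freedom, well above sampling noise. Whether background was subtracted is not given in the sources used here.

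Deposited log2 values were tested with limma 3.58.1 (lmFit and eBayes, R 4.3.3) in one fit of 3 group means over 24 samples, without a filter or pseudocount, and with Benjamini-Hochberg adjustment over all 547 genes and a threshold of 0.05. The methods of the study used aov and TukeyHSD, run here as an alternative. Ratios and values relative to T cell genes were tested by exact two-sided permutation. The scripts were tested on simulated data. Members and gene lists were chosen with earlier results of these data known. From each other list, at most 3 genes are named, those with the largest difference among genes past the threshold in PAT3 against Control. The 2 genes most alike to each factor have the highest Pearson correlation over 24 samples after subtraction of group means. Promoters were taken from RefSeq (GRCm38.p6). Alternatives were other scalings, voom, a filter at a mean log2 value of 5, covariates and leaving out samples. No label ties a sample to a named animal, and each sample was taken as 1 mouse. The p-values set a difference between groups against the spread between these samples, and litter and cage were not modelled.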

Additional observations from a re-analysis of the deposited data

Results flagged for a closer look

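Among 36 groups of values (9 factors and 3 ratios in 3 groups), 4 held a mouse far from the others of its group by Dixon's test at 95%, a test that chance passes in about 1 of 20 groups. Eomes in PAT1 replicate 1 was 4.77, with the next mouse at 3.25, in the shallowest sample of the study. Lef1 in PAT1 replicate 7 was 6.36, with the next at 4.63, and Ets1 in the same mouse was 10.07, with the next at 9.16. This mouse also had the highest B cell list mean, 8.37. Ets1 in PAT3 replicate 7 was 8.20, with the next at 8.94, in the shallowest PAT3 sample. No factor passed a test for a treatment effect that differed by sex.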

How the results depend on the processing

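Across 11 alternatives that changed a setting or left out several samples, Tbx21 and Runx3 passed in PAT1 under all but median re-centring, where the count of factors was 0, and the count in PAT3 stayed at 3, although under median re-centring Gfi1 took the place of Tbx21. Between PAT3 and PAT1 the count was 0 rather than 1 with the methods' test, with the size factor as a covariate and with the B cell list as a covariate. Each of these settings called 0 genes of the whole table. With the methods' test, 2 factors were lower at a Tukey p under 0.05 before adjustment over genes. Leaving out 1 mouse at a time gave 2 factors throughout in PAT1, 3 throughout in PAT3 and 0 to 3 between PAT3 and PAT1. Over the same omissions the count of all genes called between PAT3 and PAT1 ran from 0 to 102, against 23 with all mice. Runx3 and Ikzf3 in PAT3 against Control passed under every alternative. The highest adjusted p was 0.000368 for Runx3 (limma after quantile normalization) and 0.029 for Ikzf3 (methods' test). The methods' test called 73, 138 and 0 of all genes in the 3 comparisons, median re-centring 103, 230 and 57, and limma-voom on the recovered counts 115, 193 and 47, against 101, 174 and 23 as reported. Between PAT3 and PAT1 the filter on low values called 48, the enterocyte list as a covariate 77 and the omission of PAT1 replicates 6 and 7 together 70. The cause of these changes was not tested. No paired analysis was possible because the labels carry no replicate numbers shared between groups. The settings with the enterocyte list, without 3 shallow samples and without PAT1 replicates 6 and 7 were chosen after seeing the data.

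Of 1839 differences recomputed, 68 changed sign, none of them past the threshold in either setting. In PAT1 against Control, Eomes became 0.11 with median re-centring, 0.075 with the B cell list, 0.022 with the enterocyte list and 0.089 without replicates 6 and 7. Tcf7 became −0.082 with the B cell list and −0.16 without replicates 6 and 7, and Ikzf3 −0.39 and −0.20. Ikzf1 became −0.16 with the B cell list, and Gfi1 −0.043 without replicates 6 and 7. Ets1 became 0.068 with median re-centring, 0.18 with the size factor and 0.13 without shallow samples. In PAT3 against Control, Ets1 became 0.097 with median re-centring and 0.00079 without shallow samples. Between PAT3 and PAT1, Tbx21 became −0.0082 with the size factor and −0.10 with the B cell list, and Tcf7 −0.15 with the size factor and −0.062 without shallow samples. Lef1 became 0.052 and Ikzf1 0.033 with the B cell list, and Ets1 0.029 with median re-centring, 0.19 with the B cell list and 0.15 without replicates 6 and 7. With Ptprc in place of T cell genes, Tbx21 became −0.14 in PAT3 against Control, and Eomes −0.041, Runx3 −0.055 and Lef1 −0.0077 between PAT3 and PAT1.

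Ranges over single omissions that crossed 0 were, in PAT1 against Control, −0.31 to 0.084 for Eomes, −0.12 to 0.19 for Tcf7, −0.060 to 0.33 for Ikzf1, −0.27 to 0.18 for Ikzf3, −0.24 to 0.018 for Ets1 and −0.032 to 0.18 for Gfi1. In PAT3 against Control they were −0.052 to 0.11 for Lef1, −0.13 to 0.00079 for Ets1 and −0.00095 to 0.19 for the ratio of Tcf7 to Lef1. Between PAT3 and PAT1 they were −0.034 to 0.13 for Tbx21, −0.056 to 0.26 for Tcf7 and −0.11 to 0.15 for Ets1. Relative to T cell genes they were −0.15 to 0.058 for Ikzf3 and −0.13 to 0.031 for Runx3 in PAT3 against Control, and −0.077 to 0.14 for Ikzf1 and −0.052 to 0.38 for Eomes between PAT3 and PAT1.

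On the T cell scale, differences between PAT3 and PAT1 that did not pass with all mice passed without 1 mouse for Tbx21 (PAT1 replicate 6), Tcf7 (PAT3 replicate 7), Ikzf3 (PAT1 replicate 3, PAT3 replicate 2 or 7), Ets1 (PAT3 replicate 7) and Gfi1 (PAT1 replicate 6, PAT3 replicate 7 or 10). Against Control the same held in PAT1 for Tcf7 (PAT1 replicate 1) and Gfi1 (PAT1 replicate 2). The filter on low values removed Eomes and Lef1. Depth limits Eomes, whose samples held 4 to 16 counts, and to a lesser degree Lef1, with a median of 22.5 counts.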
